A study of Mus musculus with 2 samples.

Results

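Fibroblasts carrying the Matrigel tag were compared with fibroblasts carrying the Cafum tag in 1 droplet single-cell RNA library of colonies grown from mouse aorta. The barcodes were chosen by measured values. A barcode entered with at least 500 genes, at least 1000 gene UMIs (unique molecular identifiers, each marking 1 captured RNA molecule) and at most 10% mitochondrial UMIs. The sum of Col1a1, Col1a2, Col3a1 and Dcn had to reach 0.3% of its gene UMIs, that of the mast cell proteases Cpa3 and Cma1 had to stay under 1%, and that of C1qa, C1qb and C1qc under 0.1%. Of 34813 barcodes, 33964 passed the quality thresholds and 3575 met the fibroblast part of the rule. The Matrigel tag alone (at least 1096 UMIs, which is 2 times its median of 548 over the 33964 barcodes, with the Cafum tag under 1800 UMIs) marked 2026 of these. The Cafum tag alone (at least 2032 UMIs, with the Matrigel tag under 1096) marked 103, so 2129 barcodes are described. The median Cafum tag over the 33964 barcodes was 2397 UMIs, above the Cafum threshold. The 2 thresholds are thus not on a like scale, and a Cafum-tagged barcode need not exceed the typical Cafum count of the library. Of the other fibroblast barcodes, 347 had both tags, 974 had neither, and 125 had a Cafum tag between 1800 and 2032 UMIs, 95 of them with the Matrigel tag and 30 without it.

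Per the labels, 2 male mice of the strain C57BL/6J, 12 weeks old, gave the dorsal aortas. The aortas were freed of perivascular fat and digested with Liberase, and the cells were plated in methylcellulose, which is stiff enough to keep a progenitor and its progeny together as a colony. After 14 days the macrophage colonies (CFU-M) were taken apart, and viable cells were sorted as negative for DAPI. The labels name neither Matrigel nor Cafum as a culture or treatment, so what each tag stands for is taken from its name alone, and all groups share the strain, the age and the colony culture that the labels give. No replicate library was analysed. Cells of 1 library are not replicates, so no test was possible, every interval below is a 95% interval for counting error only, and no difference between the groups has a replicate check.

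In MULTI-seq, a lipid-anchored DNA oligonucleotide is pushed into the membrane of every cell in a suspension, and suspensions with different oligonucleotides are then pooled and run together. Free oligonucleotide and free RNA in the pool enter droplets with any cell, so a tag or a transcript count has a background. Fibroblasts build collagen, elastic fibres and proteoglycans in the adventitia of the aorta. On a stiff matrix or under TGF-beta they can take on a contractile program with smooth muscle actin, which is known as the myofibroblast state. Mast cells store proteases, histamine and heparin in granules and grow in culture when Kit ligand, a fibroblast product, is present.

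The tag groups had similar median depth but differed in doublet calls. Median depth was 31078 UMIs per cell with the Matrigel tag (range 1135 to 127950) and 31752 with the Cafum tag (3495 to 84909), and the summed counts were 64562986 and 3474348 UMIs. Barcodes with neither tag had a median of 26042 UMIs and those with both tags 37881. Scrublet called 18 barcodes (0.889%, 0.527–1.40) as doublets with the Matrigel tag, 10 (9.71%, 4.76–17.1) with the Cafum tag, 14 (4.03%) with both and 4 (0.411%) with neither. The third tag, Macrophages, was at 2 times its median or more in 89 Matrigel-tagged barcodes (4.39%, 3.54–5.38) and in 7 Cafum-tagged ones (6.80%, 2.78–13.5).

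The Cafum tag showed no gap at its threshold among fibroblasts. In the 103 barcodes it ranged from 2032 to 49914 UMIs with a median of 2480, against medians of 1196 with the Matrigel tag alone and 1156 with neither tag. Mast cell reference barcodes (Cpa3 and Cma1 at 2% or more, the collagen and decorin genes under 0.1%) numbered 23664 and had a median Cafum tag of 2574 UMIs. Just outside the Cafum threshold lay 30 barcodes (1800 to 2032 UMIs) and just inside lay 54 (2032 to 2500 UMIs). The Matrigel tag had a median of 1977 UMIs and a highest value of 81297 in the barcodes it marked alone. Just under its threshold (0.8 to 1 times) lay 386 barcodes and just above it (1 to 1.25 times) lay 408.

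**Figure D1:**
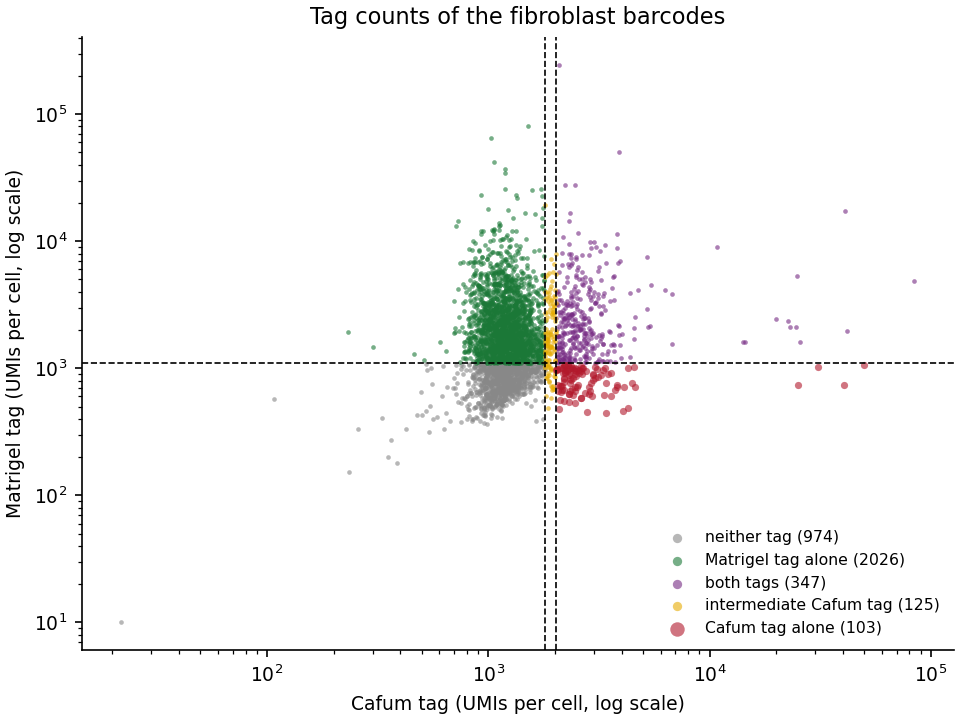
Cafum tag (x axis) and Matrigel tag (y axis) of the 3575 fibroblast barcodes, in UMIs per cell on log scales, 1 point per barcode, coloured by tag group; dashed lines are the thresholds at 1096 Matrigel UMIs and at 1800 and 2032 Cafum UMIs. The 103 Cafum-tagged barcodes lie at the edge of one cloud, 54 of them between 2032 and 2500 Cafum UMIs.

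Both groups carried the defining transcripts of fibroblasts. Levels are given as CPM, the UMIs of a gene per 1000000 gene UMIs summed over the cells of a group. Col1a1 helped choose the barcodes and says nothing here. The other marker, Pdgfra, the receptor for PDGF ligands, was at 182 CPM (179–185) with the Matrigel tag, 104 CPM (93.5–115) with the Cafum tag and 2.14 CPM in the mast cell reference. The 8 fibroblast markers outside the rule summed to 2750 CPM with the Matrigel tag (0 to 14237 in single cells) and 2425 CPM with the Cafum tag (286 to 6055). In the mast cell reference, which was chosen for few collagen and decorin UMIs, they summed to 48.3 CPM. Of these 8, Thy1, a surface glycoprotein, was past 2-fold (43.4 against 21.3 CPM, a ratio of 2.04). The Thy1 ratio was 1.65 after the subtraction of reference RNA and 1.41 and 1.55 in the crossed comparisons, both described below, so it was not past 2-fold there.

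Mast cell transcripts were higher with the Cafum tag. All 9 mast cell markers tested were at least 2-fold higher with the Cafum tag, beside 4.46% of all 8584 genes compared as described below. The chymase Mcpt4 was at 1985 CPM with the Cafum tag and 283 CPM with the Matrigel tag, and the tryptase Tpsb2 at 1388 and 172 CPM. Fcer1a and Ms4a2, chains of the IgE receptor, were at 888 and 178 CPM against 132 and 20.5 CPM, and the stem cell factor receptor Kit at 344 against 53.9 CPM. Over the 10 listed markers outside the rule, the sum was 5324 CPM with the Cafum tag (393 to 10413 in single cells) and 749 CPM with the Matrigel tag (0 to 8865 in single cells), and none was at 0 in either group. The single-cell ranges overlapped, and the medians were 5278 and 567 CPM. Cpa3 and Cma1, which the rule limits, were at 3439 and 4088 CPM with the Cafum tag and 491 and 702 CPM with the Matrigel tag, as a description only.

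Set against the mast cell reference, 8 markers outside the rule stood at 21.7% of the reference level with the Cafum tag, 19.1% with both tags, 3.02% with the Matrigel tag and 2.92% with neither tag. The level followed the Cafum tag and not the Matrigel tag. Among barcodes with a low Matrigel tag it was 2.35% under 900 Cafum UMIs, 2.40% from 900 to 1200, 2.68% from 1200 to 1500, 7.55% from 1500 to 1800 and 18.0% from 1800 to 2032. Inside the threshold it was 21.6%, 21.0% and 22.6% in the bands that start at 2032, 2500 and 3000 UMIs. The rule bears on these upper values, since its limit of 1% on Cpa3 and Cma1 is 25.4% of their level in the mast cell reference (3.94% of UMIs). In Cafum-tagged cells the share of Cpa3 and Cma1 had a median of 0.790% and a highest value of 0.995%, close to that limit, against a median of 0.0925% with the Matrigel tag. Macrophage transcripts did not follow the tags in this way, with 5 markers outside the rule at 0.516% of the macrophage reference level (1610 barcodes) with the Matrigel tag, 0.656% with the Cafum tag, 0.678% with both and 0.566% with neither. The source of these mast cell transcripts was not tested.

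**Figure D2:**
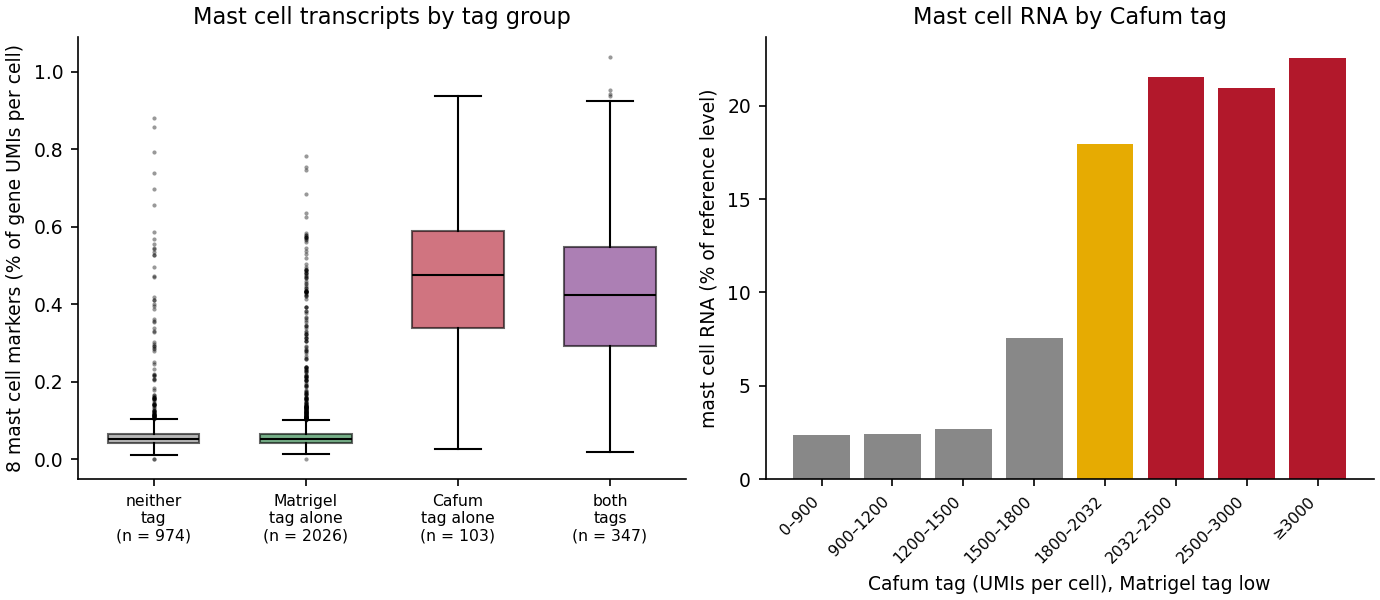
Left, share of gene UMIs from 8 mast cell markers in each cell (y axis, %) by tag group (x axis); boxes span the quartiles with the median as a line, whiskers reach 1.5 times the box and points are cells beyond them. Right, the same markers as a percent of the mast cell reference level (y axis) in bands of the Cafum tag among barcodes with a low Matrigel tag (x axis, UMIs per cell). The medians are 0.475% with the Cafum tag and 0.0512% with the Matrigel tag, and the bars run from 2.35% in the lowest band to 22.6% in the highest.

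A gene was compared when its mean over the 2 groups was at least 10 CPM and the rule had not used it, which left 8584 genes with a median log2 ratio (Matrigel over Cafum) of 0.04. Of these, 124 were at least 2-fold higher with the Matrigel tag (1.44%) and 383 with the Cafum tag (4.46%). With called doublets left out (2008 and 93 barcodes), 348 genes were 2-fold higher with the Cafum tag. Scrublet called 9.32% of all barcodes while its expected rate was set at 27.85%, so doublets may remain among those kept. In the mast cell reference, 377 of the 383 were above their level in Matrigel-tagged fibroblasts, and 373 were also above their level in Cafum-tagged fibroblasts. Of all 8584 genes, 5168 were above the mean of the 2 tag groups in the mast cell or the macrophage reference. Of the 383, the 5 with the largest ratio among those with a mean of at least 20 CPM and a higher level in a reference were Ctsg, a granule protease, the transcription factor Runx3, the phosphatase Ptpn7, the G protein regulator Rgs13 and the kinase subunit Pik3cg. Ctsg was at 131 CPM against 8.81 CPM, with 345 CPM in the mast cell reference. Over the 3416 genes whose mean level in the 2 tag groups was at or above that in the mast cell reference and in the macrophage reference, 6 were higher with the Cafum tag (0.176%), namely Eln, Nrep, Clstn2, Chchd10, Heyl and Nmu, and 99 with the Matrigel tag (2.90%). The median log2 ratio of these 3416 genes was 0.23 and that of the other 5168 was -0.09. This filter sets aside genes high in mast cells, as most of the 383 were, so the 6 and the 99 are not an even comparison of the 2 directions. With mast cell and macrophage RNA subtracted in proportion to the markers, 75 of 8340 genes were higher with the Matrigel tag (0.899%) and 107 with the Cafum tag (1.28%). Of those 107, 89 were among the 383, and they still held all 7 mast cell markers compared there, Tpsb2 and Ms4a2 among them. These 2 were among the 8 markers that set the subtracted share, pooled at 21.7% for the Cafum tag. They stood at 23.5% and 27.2% of the reference level, and a marker above the pooled share is not fully removed. The counts after subtraction thus still include mast cell genes, and the reason was not tested.

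Since mast cell RNA tracked the Cafum tag, the Matrigel tag was also compared with the Cafum tag held low (Matrigel tag alone against neither tag) and held high (both tags against Cafum tag alone). This layout was chosen after the mast cell values were seen. With the Cafum tag low, 65 of 8366 genes were 2-fold higher with the Matrigel tag (0.777%) and 10 lower (0.120%). With the Cafum tag high, 48 of 8571 were higher (0.560%) and 15 lower (0.175%). No barcode is in both comparisons. Over the 8050 genes measured in both, 20 were higher with the Matrigel tag each time, which is 31.75% of the 63 and 44.44% of the 45 called. They were Acta2, Tagln, Dlk1, Ltbp1, Ogn, Sfrp2, Adam12, Tll1, Gpr39, Grm7, Slco3a1, Fabp5, S100a4, Anxa3, Cav1, Ccnd1, Clca3a1 and the haemoglobin genes Hbb-bs, Hba-a1 and Hba-a2. Eln, Chchd10 and Nrep were lower each time, 3 of 9 and 3 of 13. Single cells decided several of these calls. Without each gene's highest cell in all 4 groups, 17 of the 20 stayed past 2-fold in both comparisons, and the 3 haemoglobin genes did not. A single cell with both tags held 96.8% of that group's Hbb-bs UMIs and a single Matrigel-tagged cell 83.7%, and without them the Hbb-bs ratios were 1.79 with the Cafum tag low and 1.40 with it high, in place of 10.7 and 39.1. None of the 3 lower genes stayed past 2-fold in both, with Eln at 1.98 and 2.09 times, Nrep at 1.98 and 3.13 times and Chchd10 at 2.86 and 1.89 times the level with the Matrigel tag. The step weighs more on a small group. For Acta2 the highest cell held 28.6% of UMIs with the Cafum tag alone and 14.7% with both tags. Its ratio there went from 3.51 to 4.17. In the main comparison the step took the 124 genes to 201 and the 383 to 354. Calls kept or lost by it are thus not an even check of the 2 directions. The tags were thus crossed within 1 library, and each of these comparisons shares a group with the comparison of Matrigel-tagged and Cafum-tagged barcodes.

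**Figure D3:**
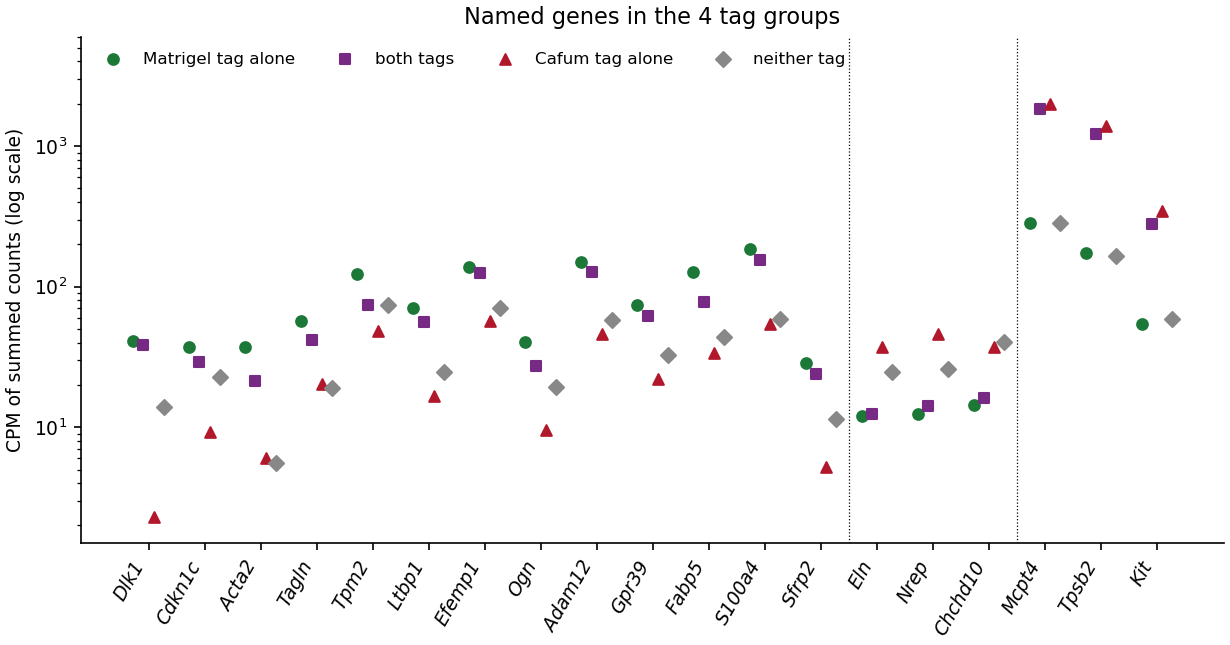
CPM of summed counts (y axis, log scale) of 19 named genes (x axis) in the 4 tag groups; dotted lines separate genes higher with the Matrigel tag, genes lower with it, and mast cell genes. Acta2 sits at 37.2 and 21.2 CPM in both groups with the Matrigel tag and at 6.04 and 5.53 CPM in both groups without it, while Mcpt4 sits high in both groups with the Cafum tag.

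Of 11 listed contractile genes, 5 were abundant enough to compare, and 3 of these (Acta2, Tagln and Tpm2) were past 2-fold higher with the Matrigel tag, beside 1.44% of all genes compared. All 5 were at or above both references, where 2.90% of genes were past 2-fold. The list median log2 ratio was 1.34, against 0.04 over all genes and 0.23 over those at or above both references. In each crossed comparison 2 of the 5, Acta2 and Tagln, were past 2-fold. Acta2, smooth muscle alpha-actin (chromosome 19, 34241090–34255590, minus strand, GRCm38), was at 37.2 CPM (35.8–38.8) with the Matrigel tag and 6.04 CPM (3.74–9.24, 21 UMIs) with the Cafum tag, a ratio of 6.16 (4.02–9.97). It was a minority transcript in both groups. A median cell had none, 365 of 2026 Matrigel-tagged cells (18.0%, 16.4–19.8) and 9 of 103 Cafum-tagged cells (8.74%, 4.07–15.9) had a UMI, and the highest cells reached 2290 and 166 CPM. Thinned to 5000 UMIs per cell, the shares were 6.59% (5.53–7.78) and 2.94% (0.611–8.36), intervals that overlap, beside 0.423% of thinned mast cell reference barcodes. With the tags crossed, Acta2 was 6.73-fold (5.67–8.05) higher with the Cafum tag low and 3.51-fold (2.26–5.76) with it high.

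Tagln, the actin-binding protein transgelin, was at 57.0 CPM (55.1–58.8) against 20.4 CPM (16.0–25.8) and also past 2-fold in both crossed comparisons. It overlaps Pcsk7 on the other strand, and the use of strand in counting is not given in the sources used here. Tpm2, a tropomyosin, was at 123 CPM (120–125) against 48.4 CPM (41.3–56.2), and its ratio fell short of 2-fold with the tags crossed (1.66 and 1.52). Tpm1 and Cald1, which also bind actin filaments, had ratios of 1.42 and 1.48. Myl9, the myosin light chain, was too low to compare, with 2 UMIs with the Cafum tag and 4.40 CPM with the Matrigel tag. Of the defining mural cell markers, Cnn1 had no UMI with the Cafum tag and stood at 0.124 CPM with the Matrigel tag, and the 10 mural markers summed to 138 CPM (0 to 5673 in single cells) and 68.2 CPM (0 to 425).

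The promoters of a pair of contractile genes are shown because this list had the highest median of the lists with at least 3 genes compared, leaving aside the markers of other cell types. RefSeq (GRCm38.p6) gave 9 promoters for 8 of the 11 listed genes, each from 250 bases before to 50 after a gene's start. They were searched for the CArG box, the site of serum response factor, and for CATTCC on both strands (GGAATG on the other), the core of the MCAT element bound by TEAD factors. Capitals mark the matches.
Acta2 (chr19:34255324-34255623, minus strand): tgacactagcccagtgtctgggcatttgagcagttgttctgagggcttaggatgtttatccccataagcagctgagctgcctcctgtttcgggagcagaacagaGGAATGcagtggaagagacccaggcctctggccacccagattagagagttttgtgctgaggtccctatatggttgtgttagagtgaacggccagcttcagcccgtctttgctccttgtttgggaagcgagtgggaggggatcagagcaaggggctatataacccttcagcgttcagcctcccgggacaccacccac
Myl9 (chr2:156775214-156775513, plus strand): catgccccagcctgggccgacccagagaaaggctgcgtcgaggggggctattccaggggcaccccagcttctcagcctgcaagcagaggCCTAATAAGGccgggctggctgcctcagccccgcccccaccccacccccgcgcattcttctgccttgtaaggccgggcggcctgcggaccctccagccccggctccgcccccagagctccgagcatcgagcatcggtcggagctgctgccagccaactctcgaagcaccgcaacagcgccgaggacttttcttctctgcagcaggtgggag
The Acta2 window held GGAATG at position -146 from the RefSeq start and no CArG box in its strict form, and the Myl9 window held a CArG box at -161. The GENCODE start of Acta2, 34255590, lies farther upstream in this window, and the GGAATG match lies after it. Myl9, too low to compare, was the 1 gene of the 8 with a CArG box. Tpm2, past 2-fold like Acta2, had neither motif in its window. Tagln, also past 2-fold, was not among the 8 genes. CATTCC was in the windows of 4 of the 8 genes (Acta2, Cald1, Lmod1 and Tpm1) and in 14.7% of all 32851 promoters of 300 bases, and the CArG box in 1 of the 8 and in 1.63%. No match of one motif overlapped a match of the other. A match describes these letters and not a bound site.

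Growth-related imprinted genes showed the highest single ratio. Dlk1, a membrane-bound ligand of the Notch family found on immature stromal cells (chromosome 12, 109452823–109463336, plus strand), was at 40.8 CPM (39.3–42.4) with the Matrigel tag and 2.30 CPM (0.994–4.54, 8 UMIs) with the Cafum tag, a ratio of 17.7 (8.98–41.1). Barcodes with both tags had 38.6 CPM and those with neither 14.0 CPM. The values with the Matrigel tag were thus close at low and high Cafum tag, while the groups without it differed. A UMI was found in 308 Matrigel-tagged cells (15.2%, 13.7–16.8) and in 6 Cafum-tagged cells (5.83%, 2.17–12.2), and thinned shares were 6.79% and 0% (0–3.55), beside 0.370% in the mast cell reference. Cdkn1c, a brake on the cell cycle, was at 37.5 CPM (36.0–39.0) against 9.21 CPM (6.30–13.0). These were 2 of 11 imprinted genes compared, beside 1.44% of all genes and 2.90% of those at or above both references. H19, at 157 and 89.5 CPM, and Meg3, at 557 and 391 CPM, were under 2-fold. With the tags crossed, Cdkn1c was past 2-fold with the Cafum tag high but not with it low, so Dlk1 alone of this list was past 2-fold in both.

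Matrix genes were mostly alike, with a few exceptions in both directions. Over all genes compared, 1.44% were past 2-fold higher with the Matrigel tag and 4.46% with the Cafum tag. None of 12 collagens compared outside the rule, 13 basement membrane genes or 16 proteases and inhibitors was past 2-fold, and their median log2 ratios were 0.24, 0.41 and 0.24, beside 0.23 over the genes at or above both references. Of 18 elastic fibre genes, Ltbp1 and Efemp1 were higher with the Matrigel tag and Eln with the Cafum tag. Mfap4, under 2-fold here, was past 2-fold lower with the Matrigel tag after the subtraction and against neither tag. Ltbp1, which anchors latent TGF-beta in the matrix, was at 70.1 CPM (68.1–72.2) against 16.7 CPM (12.7–21.6), a ratio of 4.20 (3.24–5.54), and was 2.84-fold and 3.36-fold higher with the tags crossed. Efemp1, a fibulin, was at 139 CPM (136–142) against 57.3 CPM (49.6–65.8), and was not past 2-fold after subtraction or with the Cafum tag low. Of 17 proteoglycans and matricellular genes, Ogn (osteoglycin) was at 40.4 CPM (38.9–42.0) against 9.50 CPM (6.54–13.3) and Prelp at 18.7 against 7.77 CPM, the latter not past 2-fold after subtraction or with the tags crossed. Ogn overlaps Cenpp on the other strand.

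Eln, which encodes tropoelastin (chromosome 5, 134702593–134747323, minus strand), was at 37.1 CPM (31.0–44.1, 129 UMIs) with the Cafum tag and 12.1 CPM (11.3–13.0) with the Matrigel tag, a ratio of 3.07 (2.53–3.70). A single Cafum-tagged cell held 43.4% of the group's Eln UMIs. With the highest cell of each group left out the ratio was 1.81, a step that weighs more on the smaller group. The share of cells with a UMI was 21.4% (13.9–30.5) against 19.5% (17.8–21.3). The level in barcodes with both tags was 12.4 CPM and with neither 24.6 CPM. Nrep, a neuronal regeneration related protein, was at 45.8 CPM (38.9–53.5) against 12.3 CPM (11.5–13.2), with 26.4% of the Cafum group's UMIs in 1 cell and a ratio of 2.83 without it. Nrep was detected in 33 of 103 Cafum-tagged cells (32.0%, 23.2–42.0) and in 17.4% (15.8–19.1) of Matrigel-tagged ones. Clstn2, a calsyntenin, and Chchd10, a mitochondrial protein, complete the genes named by ratio in this direction. Clstn2 was at 31.7 against 10.6 CPM (9.79–11.4) and Chchd10 at 37.4 against 14.3 CPM (13.4–15.2), and their ratios without the highest cells were 2.07 and 2.06. For Clstn2 the thinned share ran the other way, 2.94% with the Cafum tag and 4.39% with the Matrigel tag, so no order is read from that share. Chchd10 overlaps Mmp11 on the other strand.

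Signalling genes named by ratio were higher with the Matrigel tag in small numbers per list. The share over all genes compared was 1.44%, and 2.90% over those at or above both references. Sfrp2, a secreted Wnt modulator, was at 28.7 CPM (27.4–30.1) against 5.18 CPM (3.07–8.19) and was 1 of 5 Wnt genes compared. Fgf7, Igfbp3 and Vegfd were 3 of 17 growth factor ligands and binding proteins, at 41.2, 47.0 and 88.7 CPM against 16.4, 22.2 and 44.0 CPM. After the subtraction only Fgf7 of these was past 2-fold. With the tags crossed at low and high Cafum tag, the ratios were 1.58 and 2.07 for Fgf7, 0.854 and 1.97 for Igfbp3 and 1.52 and 1.64 for Vegfd. Ccl19, Cxcl1 and Cxcl13 were 3 of 9 chemokines, and after the subtraction only Cxcl13 was. With the tags crossed, Ccl19 had ratios of 0.793 and 1.76, Cxcl1 of 1.07 and 1.71 and Cxcl13 of 1.88 and 5.39. Cxcl13, a B cell attractant, was at 56.7 against 5.76 CPM, and 55.0% of its 20 Cafum-group UMIs lay in 1 cell. With the Matrigel tag, 50.9% of its UMIs lay in 10 of 2026 cells, and with both tags 90.6% lay in 10 of 347. A UMI was found in 8.98% (7.77–10.3) of Matrigel-tagged and 7.77% (3.41–14.7) of Cafum-tagged cells, intervals that overlap. Of 6 genes for haematopoietic growth factors, none was higher with the Matrigel tag by 2-fold. Csf1, the macrophage growth factor, was at 233 against 119 CPM (ratio 1.95, 1.77–2.16), and Kitl, the ligand of Kit, at 88.0 against 57.0 CPM (ratio 1.54, 1.34–1.79).

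The remaining genes with the highest ratios belonged to several classes. Adam12, a membrane protease, was at 151 CPM (148–154) against 46.0 CPM (39.2–53.8), and Gpr39, a zinc receptor, at 73.7 CPM (71.6–75.8) against 22.2 CPM (17.5–27.7). Adam12 overlaps A130023I24Rik on the same strand, and reads of the overlap cannot be assigned. The lipid carrier Fabp5 and the calcium-binding protein S100a4 were at 126 and 184 CPM against 33.7 and 53.8 CPM. The S100a4 shares of thinned cells, 28.1% (26.2–30.2) and 26.5% (18.2–36.1), did not differ beyond their intervals, and 20.5% of thinned mast cell reference barcodes also had a UMI. The glutamate receptor genes Grm7 and Gria4 were at 42.6 and 135 CPM against 9.79 and 43.2 CPM, the transporter Slco3a1 at 33.8 against 10.1 CPM and the ubiquitin ligase Sh3rf1 at 45.9 against 14.7 CPM. Gria4 and Sh3rf1 were not among the genes past 2-fold in both crossed comparisons. A Gria4 UMI was found in 44.5% (42.3–46.7) of Matrigel-tagged and 38.8% (29.4–48.9) of Cafum-tagged cells, intervals that overlap. Hbb-bs, beta-globin, was at 64.9 against 4.89 CPM, but 1 Matrigel-tagged cell held 83.7% of its UMIs. Without the highest cells the Hbb-bs ratio was 2.42 in place of 13.3. The alpha-globin genes Hba-a1 and Hba-a2 are near-identical copies, so counts cannot be assigned firmly between them.

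Other lists held few genes past 2-fold, and most of those higher with the Cafum tag were also high in the mast cell reference. The counts stand beside 1.44% of all genes higher with the Matrigel tag and 4.46% with the Cafum tag. Of 8 adventitial progenitor genes, Ly6c1 and Anxa3 were higher with the Matrigel tag (39.8 and 60.9 CPM, ratios of 2.09 and 2.98) and Cd34 and Cd55 with the Cafum tag (33.7 and 161 CPM, 2.31 and 6.46 times the Matrigel group). Cd34 and Cd55 stood at 76.8 and 719 CPM in the mast cell reference. Likewise Tgfb1, Tgfbr1 and Id2 (3 of 16 BMP and TGF-beta genes), the chemokine Ccl2 (1 of 9), Angpt1 (1 of 6 haematopoietic factors) and Igfbp5 (1 of 17 growth factor genes) were past 2-fold with the Cafum tag and higher still in the mast cell reference. Of 12 complement genes, Cfb and Masp1 were higher with the Matrigel tag (19.6 and 17.9 against 8.35 and 8.64 CPM) and Cd55, which is also in this list, with the Cafum tag. Of 11 unfolded protein and amino acid response genes, the serine synthesis enzyme Phgdh was higher with the Matrigel tag (22.5 against 9.21 CPM) and Sdf2l1 with the Cafum tag (38.0 against 15.9 CPM). Of 9 senescence genes, the cell cycle inhibitor Cdkn2b was higher with the Matrigel tag (31.1 against 15.3 CPM). Of 12 S phase genes, the replication factor Mcm3 was higher with the Cafum tag (23.3 against 11.4 CPM), as was Ier3 of 16 immediate early and heat shock genes (454 against 215 CPM). Sdf2l1, Mcm3 and Ier3 were higher still in the mast cell reference. None of 6 retinoid and state genes and 2 skeletal lineage genes was past 2-fold. None of 9 Hox genes was past 2-fold, though their median log2 ratio was 0.65, and of 11 other positional factors Osr1 was (32.9 against 13.5 CPM). None of 19 glycolysis, 15 cholesterol, 9 interferon-response, 10 antigen presentation and 13 mitosis genes was past 2-fold. After the subtraction, Ly6c1, Masp1, Cdkn2b and Osr1 were not past 2-fold with the Matrigel tag. None of the genes given so far in this paragraph as higher with the Cafum tag was past 2-fold in that direction after it. The complement gene C7, under 2-fold before it, was past 2-fold higher with the Cafum tag after the subtraction and against both tags. In the Cafum group 91.1% of C7 UMIs lay in 10 cells. With the Cafum tag held low, 10 of 11 mitosis genes were 2-fold higher with the Matrigel tag than with neither tag, beside 0.777% of all genes, among them Mki67 (46.1 against 17.9 CPM) and Top2a (69.8 against 29.2 CPM). With the Cafum tag held high, none of 13 was past 2-fold and the median log2 ratio was -0.34. Against neither tag, the Cafum tag alone also had 10 of 11 mitosis genes 2-fold higher, beside 5.40% of all genes. In Cafum-tagged barcodes Mki67 was at 71.7 CPM, beside 102 CPM in the mast cell reference, and the part of mast cell RNA in that level was not tested.

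Markers of other cell types were summed in the same way. The 9 endothelial markers summed to 340 CPM (0 to 5761 in single cells) with the Matrigel tag and 277 CPM (0 to 1226) with the Cafum tag. Cdh5 and Tie1, which define endothelium, had no UMI with the Cafum tag, and Tie1 none with the Matrigel tag. Pecam1 was higher with the Cafum tag, at 25.6 CPM against 5.39 CPM with the Matrigel tag, and stood at 87.5 CPM in the mast cell reference. The 9 macrophage markers outside the rule, which limits the other 3, summed to 103 CPM (0 to 5485) with the Matrigel tag and 164 CPM (0 to 2409) with the Cafum tag, none of them at 0. The 12 adipocyte genes summed to 841 and 562 CPM and the 7 mesothelial markers to 18.3 and 7.77 CPM, of which Wt1 (13.4 against 6.62 CPM) was past 2-fold, though not after the subtraction. Of the mesothelial markers, Msln, Upk3b, Krt19, Krt8 and Upk1b had no UMI with the Cafum tag. T and B cell markers summed to 0.864 CPM with the Cafum tag and 1.24 CPM with the Matrigel tag.

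The share of cells per state also differed. Clustering of the 3575 barcodes without the listed genes gave 7 states. The state led by mast cell genes such as Inpp4b, Samsn1 and Hdc held 89 of 103 Cafum-tagged cells (86.4%, 78.3–92.4) and 82 of 2026 Matrigel-tagged cells (4.05%, 3.23–5.00), with 75.8% of those with both tags and 2.67% of those with neither. A second clustering, chosen after that result, also left out genes higher in the mast cell or macrophage reference and gave 6 states. There the state led by Crabp1, Acta2, Dlk1 and Ltbp1 held 23.2% (21.4–25.1) of Matrigel-tagged cells, 24.8% (20.3–29.7) of those with both tags, 3 Cafum-tagged cells (2.91%, 0.605–8.28) and 4.21% (3.04–5.67) of those with neither. Crabp1, Acta2, Dlk1 and Ltbp1 are all listed genes and were not used in the clustering. The state led by Frem1 and Nrep held 48.5% (38.6–58.6) of Cafum-tagged, 21.2% (19.4–23.0) of Matrigel-tagged, 30.8% of both-tag and 37.9% of untagged cells. The state led by C7 and Abi3bp held between 22.3% and 26.1% of every group. The state led by Cfd, with a median of 9678 UMIs per cell, held 13.2% of Matrigel-tagged, 13.6% of untagged, 3.75% of both-tag and 1.94% of Cafum-tagged cells. In the first clustering, Acta2 was highest of the 7 states, at 150.5 CPM, in a state led by Cenpf, Prc1 and Hmmr. The state led by Dlk1, Ptn and Crabp1 there had 42.8 CPM. The Cenpf state held 6.12% (5.12–7.25) of Matrigel-tagged, 2.02% of both-tag, 1.64% of untagged and 0% (0–3.52) of Cafum-tagged cells. Few Cafum-tagged cells lay outside the mast cell state there. The part of the Cenpf state in the Acta2 and mitosis gene ratios was not tested.

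Several ratios were smaller within the states that held at least 5 cells of each tag group. Averaged over 3 states of the second clustering with the same weights in both groups, which leaves out the state led by Crabp1 and Acta2, the log2 ratio was 1.31 for Acta2 in place of 2.62, 0.61 for Ltbp1 in place of 2.07, and 0.68 for Efemp1 in place of 1.28. Acta2 thus stayed past 2-fold on this scale, and Ltbp1 and Efemp1 did not. Over all genes on this scale, 66 were 2-fold higher with the Matrigel tag, against 124, and 431 with the Cafum tag, against 383.

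Levels differed along the Matrigel tag itself, without a step at its threshold. Among barcodes with the Cafum tag low, Acta2 was at 5.03, 3.67, 3.89 and 8.13 CPM in the 4 bands under the threshold. In the 4 bands above it, the last starting at 4 times the threshold, Acta2 was at 12.5, 16.2, 36.9 and 107 CPM. Dlk1 was at 1.26, 11.8, 20.3 and 10.3 CPM in the 4 bands under the threshold and at 11.5, 16.0, 58.0 and 89.2 CPM above it. Its order was uneven, since the band from 0.6 to 0.8 times the threshold exceeded both bands from 1 to 2 times. Mgp, an inhibitor of calcification named after its values were seen, ran the other way, from 31085 CPM in the lowest band to 9491 CPM in the highest. Its group levels were 15673 CPM with the Matrigel tag and 21596 CPM with the Cafum tag, and single cells overlapped throughout, from 68.9 to 116893 CPM and from 308 to 106044 CPM. Just outside and just inside the threshold, Acta2 was at 8.13 and 9.84 CPM and Mgp at 24559 and 23241 CPM. Median depth also went from 18575 UMIs per cell in the lowest band to 40698 in the highest, and its part in the trend was not tested. Between 15000 and 50000 UMIs per cell, 135 genes were 2-fold higher with the Matrigel tag.

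**Figure D4:**
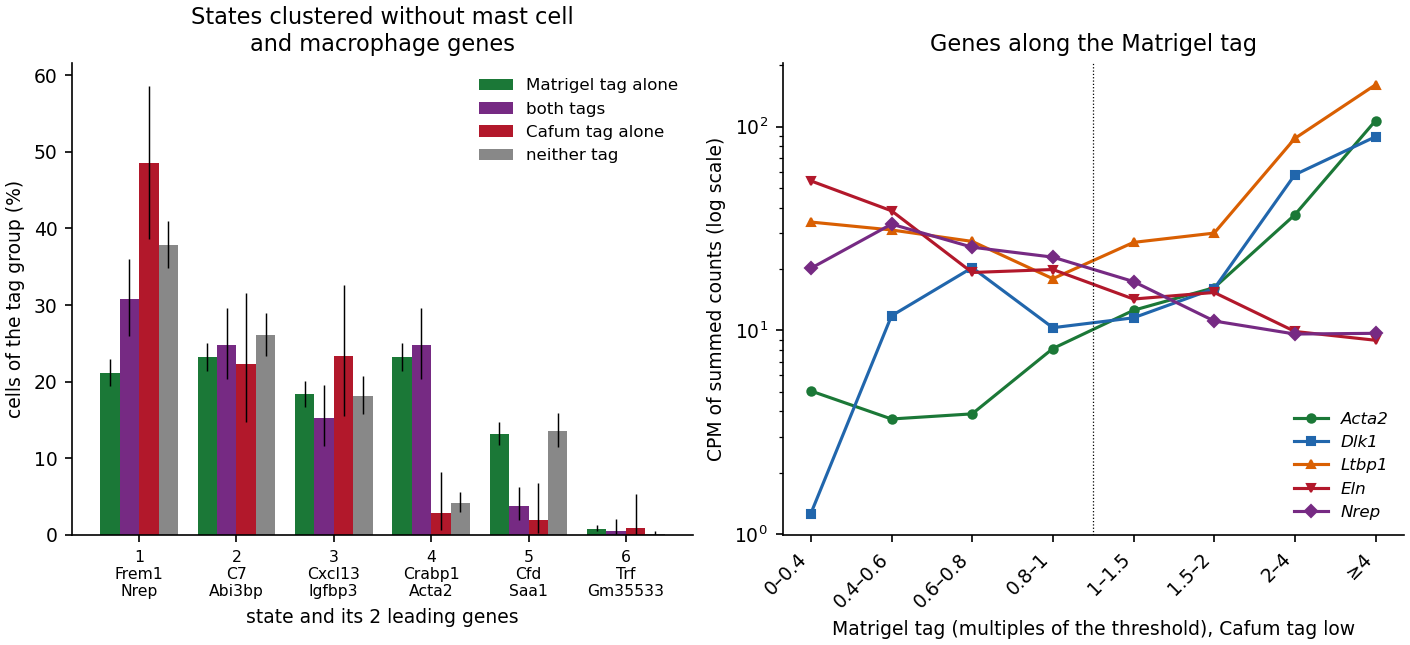
Left, percent of each tag group's cells (y axis) in the 6 states of the second clustering (x axis, with the 2 leading genes), bars with exact 95% binomial intervals. Right, CPM (y axis, log scale) of 5 genes in bands of the Matrigel tag as multiples of its threshold (x axis), the dotted line marking the threshold. State 4 holds 23.2% and 24.8% of the groups with the Matrigel tag and 2.91% and 4.21% of those without it, and Acta2 reaches 107 CPM in the highest band.

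Transcripts of Xist, which silences an X chromosome in females, were present in both groups although the labels give male mice. In thinned cells, Xist without a Y-linked transcript was found in 66.7% (64.6–68.8) of Matrigel-tagged and 71.6% (61.8–80.1) of Cafum-tagged cells. Y-linked transcripts without Xist were found in 15.1% (13.6–16.8) and 12.7% (6.96–20.8). For these classes the intervals of the tag groups overlapped. Both kinds together were found in 5.36% (4.41–6.46) of Matrigel-tagged, 8.82% (4.11–16.1) of Cafum-tagged, 12.8% (9.48–16.8) of both-tag and 5.59% (4.20–7.26) of untagged cells. Without thinning, at least 5 Xist and 2 Y-linked UMIs together were found in 4.79% (3.90–5.81) of Matrigel-tagged and 12.6% (6.90–20.6) of Cafum-tagged cells, intervals that do not overlap, and in 19.6% (15.5–24.2) of both-tag and 1.75% (1.02–2.78) of untagged cells. Called doublets were also more frequent in the groups with the Cafum tag, and their part in this share was not tested.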

How the data were processed

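The authors deposited raw UMI counts per gene and barcode, not normalized. Per the file headers, Cell Ranger 7.0.0 wrote them. STAR, R 4.1.3, Seurat 4.1.1 and the mouse build mm10 come from the submitters' processing notes. The annotation, the counting of intronic reads and barcode filters are not given in the sources used here. The matrix held 32285 genes and 34813 barcodes, with 593248944 gene UMIs, and 3 tag features that were kept out of gene totals. The second labelled sample, a library of tags, was not used here. The members and gene lists were chosen with earlier results of these data known.

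Counts were summed over the cells of a group and scaled to CPM. CPM carry exact Poisson intervals, ratios exact conditional intervals and shares exact Clopper-Pearson intervals, all at 95%. A group at 0 was set to 3 UMIs for a fold. Genes with a mean of at least 10 CPM were compared, leaving out mitochondrial genes and those of the rule. Doublets were called with Scrublet (scanpy 1.11.5), which marked 3245 barcodes (9.32%) and removed none from the main values. States came from Leiden clustering (leidenalg 0.10.2) on 2000 variable genes, 30 components and 15 neighbours at resolution 0.5, without listed, ribosomal or mitochondrial genes. For shares of cells with a UMI, each cell was thinned to 5000 UMIs, which left out 68 Matrigel-tagged and 1 Cafum-tagged cell, 4 with both tags and 43 with neither. Thinned reference shares used 1891 mast cell barcodes. Gene positions came from GENCODE vM21 (GRCm38), the build that mm10 names.

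Named genes were the 15 with the largest ratio in each direction at a mean of 20 CPM or more and at least 2-fold. For the Cafum direction their mean level in both groups also had to reach that in the mast cell and the macrophage reference, which 4 did, and the 5 largest set aside were named too. In each list the members past 2-fold were eligible, with the 4 highest named, plus members that show where a list did not move. Mgp, Heyl, Nmu and the genes shared by the crossed comparisons were named after their values were seen. The 38 lists held 562 genes, 2 of them (Ero1a and Mx1) without a row of that name. The results of 2 marker lists are not reported here. The summing and its intervals were tested on simulated data. The groups were recomputed under other filters, tags, depths and scalings, as given in the closing section.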

Additional observations from a re-analysis of the deposited data

How the results depend on the processing

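The 124 genes 2-fold higher with the Matrigel tag became 365 with cells thinned to 5000 UMIs, 519 with stricter tags (786 and 14 cells), 780 with Cpa3 and Cma1 under 0.5% (1938 and 13 cells), 75 with mast cell and macrophage RNA subtracted, 28 at a mean of 50 CPM and 1088 with no filter beyond 3 UMIs. Among settings chosen after seeing the data they were 65 and 48 with the tags crossed (Cafum tag low and high), 66 with states of the second clustering weighted equally, and 201 with each gene's highest cell left out. The 383 genes higher with the Cafum tag became 780 with stricter tags, 107 after subtraction, 72 with the states of the first clustering weighted equally, 112 at 50 CPM, 2136 without the filter, 10 and 15 with the tags crossed and 6 over genes at or above both references. The share of Cafum-tagged cells in the state led by mast cell genes was 30.8% with Cpa3 and Cma1 under 0.5%. For Matrigel-tagged cells it was 2.29% with stricter tags, 0.774% with that limit and 3.13% with the collagen and decorin genes at 1%. Log2 ratios changed sign for Cxcl13 (-0.37), Hbb-bs (-0.15) and Hba-a1 (-0.15) with the first states weighted equally. They did so for Cd34 (0.33), Nrep (0.74) and Nmu (0.26) with Cpa3 and Cma1 under 0.5%, and for Nmu (0.23) with the collagen and decorin genes at 1%. With the tags crossed at low Cafum tag they did so for Cd34 (0.22), Fcer1a (0.072), Mcpt4 (0.006), Tpsb2 (0.064), Pik3cg (0.51), Ptpn7 (0.21) and Wt1 (-0.34). The cause was not tested, but settings that leave 13 or 14 Cafum-tagged cells rest on few counts. No paired analysis was possible because there is 1 library. The 103 Cafum-tagged cells limit precision, since Dlk1 rested on 8 UMIs there and Acta2 on 21.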
